A study of Mus musculus with 10 samples.

Results

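The levels of 10 Sox transcription factor genes were followed across germinal vesicle oocytes with and without the histone methyltransferase gene Setdb1. The members, Sox4, Sox5, Sox6, Sox8, Sox9, Sox10, Sox12, Sox13, Sox15 and Sox30, are 10 of the 24453 gene symbols in the deposited expression table, and each was found by its symbol. Sox8 was picked because it was low in the mutants, so its mutant values are given as a description with no test. Germinal vesicle oocytes are full-grown oocytes held in the first meiotic prophase. Each of the 10 libraries came from 16 denuded oocytes of 1 C57Bl/6J mouse, collected in milrinone, which keeps meiosis from resuming. The mutants are 4 Setdb1 F/-; ZP3-cre mice, which carry a floxed and a minus allele of Setdb1 and a Cre transgene under the Zp3 promoter, active in growing oocytes. A first control is 4 Setdb1 F/+; ZP3-cre mice, with the same Cre and a wild-type allele. A second control is 2 Setdb1 F/- mice, with the mutants' alleles and no Cre. All groups therefore carry a floxed allele, and the minus allele of the mutants and of F/- mice is not limited to oocytes. The sources used here give no ages.

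SOX proteins bind DNA through an HMG box, a domain that sits in the minor groove and bends the helix, and they usually act beside a partner factor. The family is divided into subgroups by the sequence of this box. In the mouse gonad the family is known for sex determination: Sry and then Sox9 turn the supporting cells of the XY gonad into Sertoli cells, and Sox8 acts beside Sox9 in keeping the testis. Full-grown oocytes make little new RNA, so their transcripts are mostly those stored during growth.

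Of the 10 genes, 2 were abundant in these oocytes. Sox8, an SoxE factor, averaged 1.85 ± 0.932 RPKM in mutants and 15.4 ± 2.8 RPKM in controls (SD, n = 4 and 6). Sox15, the SoxG factor, averaged 14.0 ± 5.84 RPKM in mutants and 9.63 ± 4.98 RPKM in controls, and the groups overlapped. RPKM is a read count scaled to transcript length and library total, and levels of different genes are set side by side on it. The scaling does not correct for amplification that differs between genes, so such comparisons are approximate. The 4 members that could be tested between mutants and controls were Sox15, Sox6, Sox13 and Sox12. Testing required a mean of 0.5 RPKM over all libraries, which Sox13 reached only through its mutant values. None of the 4 passed, in a comparison in which 604 of 11338 tested genes did (5.33%, limma, adjusted p under 0.05).

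Because the deposited values are multiples of what 1 read is worth, library totals were recovered, from 45946177 to 72650313 reads, and with them the reads behind each Sox value. Setdb1 itself, the deleted gene, stood at 4.06, 2.55, 3.32 and 1.31 RPKM in the mutant libraries, against 28.6, 25.7, 25.1 and 52.5 RPKM in F/+; ZP3-cre and 19.9 and 26.3 RPKM in F/-. The mutant mean was 9.47% of the control mean (two-sided exact permutation p = 0.0048, the smallest that 210 splits allow), and no mutant library reached a control library. All 12 oocyte markers were present in every group, and their summed level was 5740 to 5860 RPKM in mutants and 5680 to 7390 RPKM in controls. Of these 12, 1 was lower and 1 was higher in mutants than in all controls, where 5.33% of all tested genes passed. Kit was lower, at 40.0 ± 6.76 RPKM in mutants and 69.9 ± 5.03 RPKM in controls (limma adjusted p = 0.00084). Nobox was higher, at 274 ± 25.5 RPKM in mutants and 205 ± 21.3 RPKM in controls (limma adjusted p = 0.023). This call was lost in 6 of 23 alternatives (adjusted p up to 0.12), among them leaving out mutant library 1 or 2 or F/+; ZP3-cre library 1 or 4. Against F/+; ZP3-cre alone Nobox and Kit passed again, where 4.89% of all tested genes did. Against F/- alone, where 4.84% did, Kit and Zp1 were lower. Zp1 was at 349 ± 18.8 RPKM in mutants and 478 ± 8.21 RPKM in F/- (limma adjusted p = 0.019). Its call was lost in 6 of 21 alternatives, among them quantile normalization and library weights. The 12 granulosa and cumulus markers summed to 78.1 to 111 RPKM in mutants and 76.1 to 104 RPKM in controls, with Ptx3 at 0 throughout. The 7 theca and stroma markers summed to 0.948 to 3.91 RPKM in mutants and 0.948 to 3.35 RPKM in controls, with Cyp17a1 and Col3a1 at 0. The 8 blood and endothelial markers summed to 22.0 to 42.7 RPKM in mutants and 29.9 to 46.8 RPKM in controls, with Hbb-b1 and Cdh5 at 0. Of these other cell types, 7 granulosa and cumulus, 1 theca and stroma and 5 blood and endothelial markers were high enough to be tested. None of them passed between mutants and all controls, a count near the 5.33% of all tested genes.

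The promoters of the most abundant members are shown because the data turn on these genes. Each is the 250 bases before the transcription start in RefSeq (GRCm38.p6), written 5′ to 3′ on the gene's strand. Capitals mark the motifs found. In Sox8 these are the E-box, spelled CACGTG, and the GC box, spelled GGGCGG. In Sox15 it is the core recognised by SOX factors, spelled ACAAT. The Sox8 window is chr17:25570687-25570936 on the minus strand, and the Sox15 window is chr11:69654787-69655036 on the plus strand. The GENCODE M21 annotation starts Sox15 further downstream, at 69655314, so by that annotation the Sox15 window does not adjoin the start.
Sox8: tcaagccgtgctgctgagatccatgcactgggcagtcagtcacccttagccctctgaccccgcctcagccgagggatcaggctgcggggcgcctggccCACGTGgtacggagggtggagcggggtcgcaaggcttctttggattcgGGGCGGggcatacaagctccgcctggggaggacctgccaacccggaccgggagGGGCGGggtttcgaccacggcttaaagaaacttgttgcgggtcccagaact
Sox15: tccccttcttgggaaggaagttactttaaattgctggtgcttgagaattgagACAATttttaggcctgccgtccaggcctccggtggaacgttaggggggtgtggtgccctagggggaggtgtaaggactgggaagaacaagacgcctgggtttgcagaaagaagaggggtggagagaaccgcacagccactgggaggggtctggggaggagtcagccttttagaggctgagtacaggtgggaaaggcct

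The Sox8 window held 18 CpG dinucleotides and was 65.6% G or C, and the Sox15 window held 5 CpG dinucleotides and was 55.6% G or C. Over 32851 such windows the median was 6 CpG dinucleotides (quartiles 2 and 16), so the Sox8 promoter is above the upper quartile and the Sox15 promoter is below the median. These motifs, the CCAAT box and the TATA box, spelled TATAAA, were searched on both strands, and none contains another. Sox8 held 1 E-box and 2 GC boxes and none of the others, and Sox15 held 1 SOX core and none of the others. Among all windows, 6.0% held the E-box, 32.7% the GC box, 33.8% the CCAAT box, 27.7% the SOX core and 12.4% the TATA box. A match describes the letters of the window and not a site in use. Windows were at hand for 8 of the 10 members.

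In the SoxE subgroup, Sox8 was the only member with more than traces of RNA. Its level was 1.94, 2.92, 1.88 and 0.643 RPKM in mutant libraries 1 to 4. It was 16.1, 16.9, 13.6 and 17.9 RPKM in F/+; ZP3-cre and 10.6 and 17.4 RPKM in F/-. Every mutant library was below every control library, with the nearest pair at 2.92 RPKM in mutant library 2 and 10.6 RPKM in F/- library 1. Such a complete separation downward was found for 404 of 11338 tested genes (3.56%), and since Sox8 was chosen on this contrast nothing is read from it.

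The mutant mean of Sox8 was 12.0% of the mean of all controls, 11.4% of that of F/+; ZP3-cre and 13.2% of that of F/-. On the log2(RPKM + 0.5) scale, mutants minus all controls came to -2.85 (SE 0.28, 95% interval -3.44 to -2.25). This scale was used for every difference here, except in alternatives that change the pseudocount or scaling or use limma-voom. This interval does not allow for the choice of Sox8 on the same contrast. The values rested on 357, 492, 308 and 113 reads in mutants, against 2976, 3380, 2299 and 3698 reads in F/+; ZP3-cre and 1462 and 3785 reads in F/-. Reads were thus still found in every mutant library. In pools of oocytes, less Sox8 RNA in each cell and fewer cells with Sox8 RNA cannot be told apart.

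The choice of Sox8 did not use the contrast between the control groups, so this one was tested. Sox8 averaged 16.1 ± 1.86 RPKM in F/+; ZP3-cre (n = 4) and 14.0 ± 4.78 RPKM in F/- (n = 2), and the ranges overlapped. The difference of 0.23 (SE 0.38, 95% interval -0.59 to 1.05) did not pass the test (limma adjusted p = 0.82), and the interval leaves room for a difference of either sign. In this contrast 8 of 11338 genes passed (0.0706%), and none of the 5 Sox genes tested was among them. The 6 controls had a coefficient of variation of 18.2% for Sox8, and 1817 genes of a similar control level had a median of 18.8%.

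The other SoxE genes, Sox9 and Sox10, were near or at 0. Sox9, the driver of Sertoli cell fate, was at 0.122, 0, 0 and 0 RPKM in mutants, at 0.0157, 0, 0 and 0.0385 RPKM in F/+; ZP3-cre, and at 0.00525 and 0 RPKM in F/-. The mutant value came from 31 reads in library 1 alone, and the other 3 mutant libraries had none. Sox10, a neural crest and glial factor, had a single read in all 10 libraries, in F/- library 2. Sox8 therefore made up nearly the whole SoxE signal, at 1.88 ± 0.938 RPKM in mutants and 15.4 ± 2.81 RPKM in controls.

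**Figure D1:**
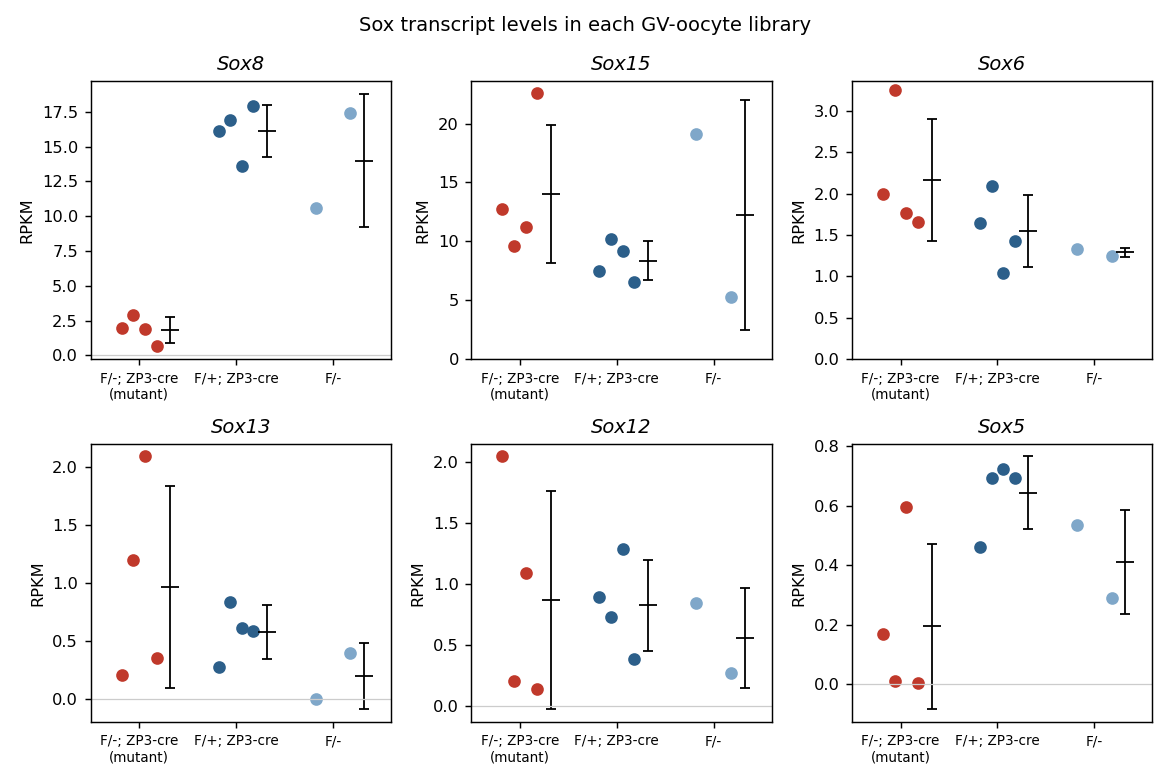
RPKM of the 6 most abundant Sox genes in each library, by genotype, on linear axes that differ between genes. Points are libraries, and the black bars give the mean ± SD of a group (n = 4, 4 and 2). The mutant points of Sox8 lie between 0.643 and 2.92 RPKM, below all controls, and the mutant points of the other 5 genes overlap those of the controls.

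Sox15 is the sole SoxG member and is known from embryonic stem cells and skeletal muscle regeneration in mice. Its level was 12.7, 9.6, 11.2 and 22.6 RPKM in mutant libraries 1 to 4. It was 7.45, 10.2, 9.16 and 6.51 RPKM in F/+; ZP3-cre and 19.1 and 5.31 RPKM in F/-. Mutant libraries 1, 3 and 4 were above all F/+; ZP3-cre libraries, library 2 lay within them, and the F/- libraries were the lowest and highest of the controls. Mutants differed from all controls by 0.56 (SE 0.32, 95% interval -0.11 to 1.24), which did not pass (limma adjusted p = 0.35). Against F/+; ZP3-cre alone the difference was 0.66 (SE 0.35, adjusted p = 0.34, limma), and against F/- alone 0.37 (SE 0.43, adjusted p = 0.66, limma). Without F/- library 1 the last difference was 1.25, and without F/- library 2 it was -0.51, so its sign rested on which F/- library was kept.

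Sox15 was above Sox8 in every mutant library, and Sox8 was above Sox15 in 5 of 6 control libraries. The ratio of Sox15 to Sox8 was 6.56, 3.29, 5.96 and 35.1 in mutants. It was 0.461, 0.604, 0.675 and 0.364 in F/+; ZP3-cre and 1.8 and 0.306 in F/-. All mutant ratios were above all control ratios, and F/- library 1 was the single control with more Sox15 than Sox8. Since Sox8 was chosen for its low mutant level, this ratio is a description and carries no test.

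The SoxD genes encode factors with a coiled coil and no recognised activation domain, and Sox5 and Sox6 are known as partners of Sox9 in cartilage. Sox6 was at 1.99, 3.25, 1.76 and 1.66 RPKM in mutants, at 1.64, 2.09, 1.04 and 1.43 RPKM in F/+; ZP3-cre, and at 1.33 and 1.25 RPKM in F/-. The mutants overlapped F/+; ZP3-cre through library 2 of that group and lay above both F/- libraries, as was found for 1548 of 11338 tested genes (13.7%). Sox6 differed by 0.43 between mutants and all controls (SE 0.27, 95% interval -0.16 to 1.02, limma adjusted p = 0.42) and by 0.54 between mutants and F/- (SE 0.36, adjusted p = 0.42, limma). Neither passed. The table holds 6 transcript rows of Sox6, with control means of 1.41 to 1.46 RPKM, so the choice of row matters little.

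Sox13, an SoxD factor known in mouse gamma delta T cells, was at 0.213, 1.2, 2.09 and 0.353 RPKM in mutants. It was at 0.281, 0.838, 0.611 and 0.592 RPKM in F/+; ZP3-cre and at 0 and 0.402 RPKM in F/-. Mutant libraries 2 and 3 were above all controls, and mutant libraries 1 and 4 lay among them. The count of 0 in F/- library 1 allows a level of up to 0.0185 RPKM, taken as 3 reads. The difference between mutants and all controls was 0.49 (SE 0.41, 95% interval -0.4 to 1.38), which did not pass (limma adjusted p = 0.56). The control mean of 0.454 RPKM was below the minimum of 0.5 RPKM. Sox13 was therefore tested only because of its mutant mean of 0.964 RPKM.

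Sox5, the third SoxD gene, had a mean below the minimum of 0.5 RPKM over all libraries and was not among the genes tested. Its mean was 0.194 RPKM in mutants and 0.566 RPKM in controls, so it missed the minimum through the mutants. It was at 0.168, 0.01, 0.595 and 0.00241 RPKM in mutants, from 73, 4, 230 and 1 reads. It was at 0.46, 0.694, 0.725 and 0.693 RPKM in F/+; ZP3-cre, from 200, 327, 290 and 338 reads, and at 0.535 and 0.288 RPKM in F/-, from 174 and 148 reads. Mutant libraries 1, 2 and 4 were below every control, and mutant library 3 lay within the controls. Without the minimum, Sox5 differed from all controls by -0.68 (SE 0.24), with an unadjusted p of 0.017 and an adjusted p of 0.21 with limma. With its 3 transcript rows summed it did reach the minimum. The difference was then -1.26 (SE 0.43, limma adjusted p = 0.12), and -1.43 (SE 0.46, limma adjusted p = 0.11) against F/+; ZP3-cre. Limma-voom on the recovered reads, an alternative added after seeing the data, gave -3.57 (SE 1.12, adjusted p = 0.1) on the log2 CPM scale. Against F/+; ZP3-cre limma-voom gave -3.82 (SE 1.1, adjusted p = 0.067). None of these passed. The number of genes above 0 was 15273, 13844, 15469 and 13993 in mutant libraries 1 to 4, so libraries 2 and 4, with the fewest Sox5 reads, also had the fewest genes detected among the mutants. The part of this in the Sox5 values was not tested. F/- library 2, with the lower Sox5 value of its group, had 13723 genes above 0.

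The SoxC genes here are Sox12 and Sox4, activators known from neural and mesenchymal progenitors. Sox12 was at 2.05, 0.201, 1.09 and 0.138 RPKM in mutants, at 0.895, 0.728, 1.29 and 0.383 RPKM in F/+; ZP3-cre, and at 0.844 and 0.267 RPKM in F/-. The mutants spanned the widest range, with library 1 above and libraries 2 and 4 below all controls. The difference between mutants and all controls was -0.03 (SE 0.42, 95% interval -0.94 to 0.87, limma adjusted p = 0.98), and its sign turned to 0.13 with quantile normalization. Mutant libraries 2 and 4 were again the low ones, as for Sox5.

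Sox4 was at 0.0111, 0, 0.062 and 0 RPKM in mutants, at 0.0771, 0.0305, 0.0419 and 0.0147 RPKM in F/+; ZP3-cre, and at 0 in both F/- libraries. The largest of these values rested on 14 reads, and no difference was detectable between mutants and controls at this depth. An antisense RNA gene shares 2616 exon bases with Sox4, and another shares 1330 with Sox5. The library kit marks no strand, so reads of these overlaps cannot be assigned to either gene.

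Sox30, the SoxH factor needed for sperm development in mice, was at 0.0872, 0.451, 0 and 0 RPKM in mutants. It was at 0.13, 0.181, 0.0118 and 0.107 RPKM in F/+; ZP3-cre and at 0.356 and 0 RPKM in F/-. The mutant group held both the highest value and 2 values of 0, and the groups overlapped.

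**Figure D2:**
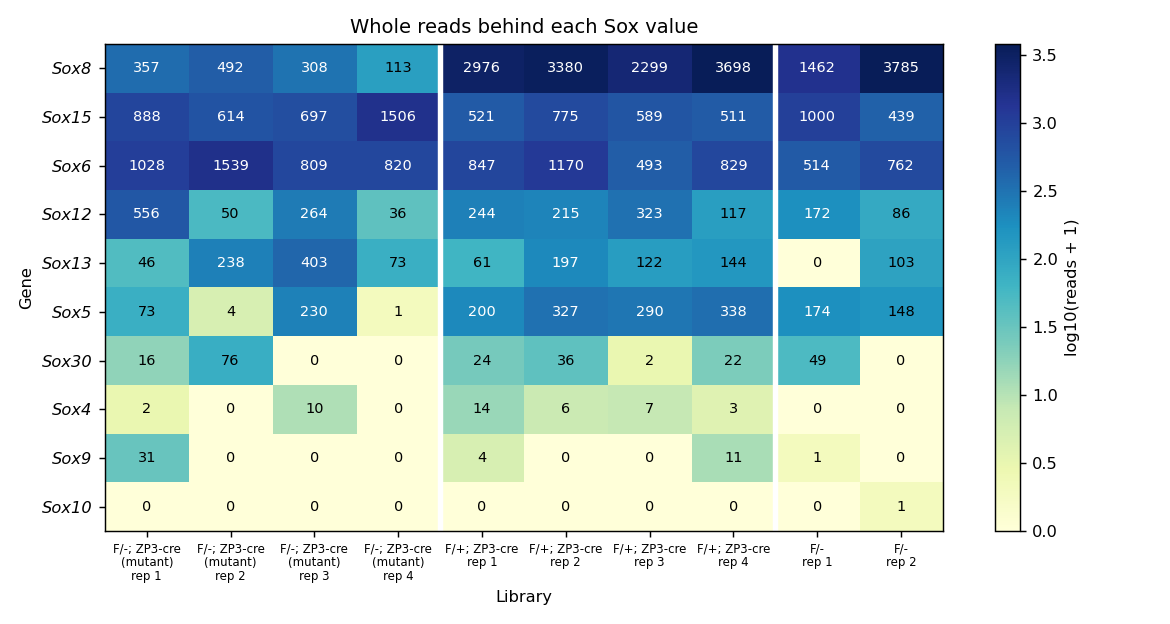
Whole reads behind the value of each Sox gene (rows) in each library (columns), with colour on a log10(reads + 1) scale. Sox8 rests on 113 to 492 reads in mutants and on 1462 to 3785 reads in controls, and Sox30, Sox4, Sox9 and Sox10 rest on 76 reads or fewer in every library.

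Of the 10 Sox genes, 5 reached the minimum level and 4 of these could be tested against the mutants, since Sox8 was chosen on the contrast. The minimum used mutants and controls together. Sox13 reached it and Sox5 missed it through their mutant values, so which genes were tested depended on the mutants. Between mutants and all controls 0 of the 4 passed, and 0 had an unadjusted p under 0.05 with limma. With limma-voom on recovered reads, Sox8 again left out, the count of members that passed was also 0. Against F/+; ZP3-cre, where 4.89% of all genes passed, and against F/-, where 4.84% did, the count was also 0 of 4. A count of 0 of 4 is near these background shares. The intervals are wide: between mutants and all controls their upper ends are 1.24 for Sox15, 1.02 for Sox6, 1.38 for Sox13 and 0.87 for Sox12 on the log2 scale.

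**Figure D3:**
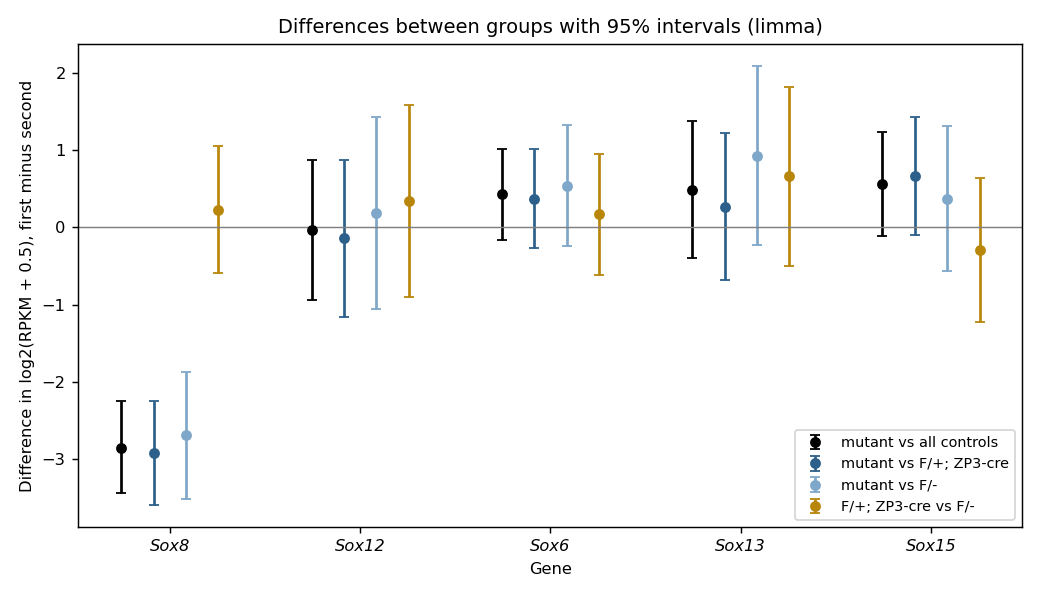
Differences in log2(RPKM + 0.5), first group minus second, for the 5 Sox genes above the minimum level, with 95% intervals from limma. The intervals of Sox8 for the mutant comparisons lie between -3.59 and -1.87 and do not allow for its choice, so they are no test. Every interval of the other 4 genes includes 0, as does that of Sox8 between the control groups. The 3 mutant comparisons share the mutant libraries, and the Sox8 values describe a gene chosen on them.

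In controls the order of mean levels was Sox8, Sox15, Sox6, Sox12, Sox5, Sox13, Sox30, Sox4, Sox9 and Sox10. The ranges of Sox8 and Sox15 overlapped, with Sox8 higher in 5 of 6 libraries. Sox15 was separate from Sox6, and all further neighbours in the order overlapped. In mutants the order was Sox15, Sox6, Sox8, Sox13, Sox12, Sox5, Sox30, Sox9, Sox4 and Sox10. Sox15 was separate from Sox6 in mutants too, and Sox6 and Sox8 overlapped.

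The summed level of the 10 genes was 19.3, 17.6, 18.7 and 25.4 RPKM in mutants. It was 27.1, 31.7, 26.4 and 27.7 RPKM in F/+; ZP3-cre and 32.8 and 24.9 RPKM in F/-. The mutants were lower except for library 4, which passed F/- library 2. Sox8 made up 10.1%, 16.6%, 10.1% and 2.53% of the sum in mutants and 32.3% to 69.8% in controls. Without Sox8 the sum was 18.4 ± 4.37 RPKM in mutants and 13.0 ± 5.15 RPKM in controls, and the ranges of 14.7 to 24.7 and 7.52 to 22.2 RPKM overlapped.

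**Figure D4:**
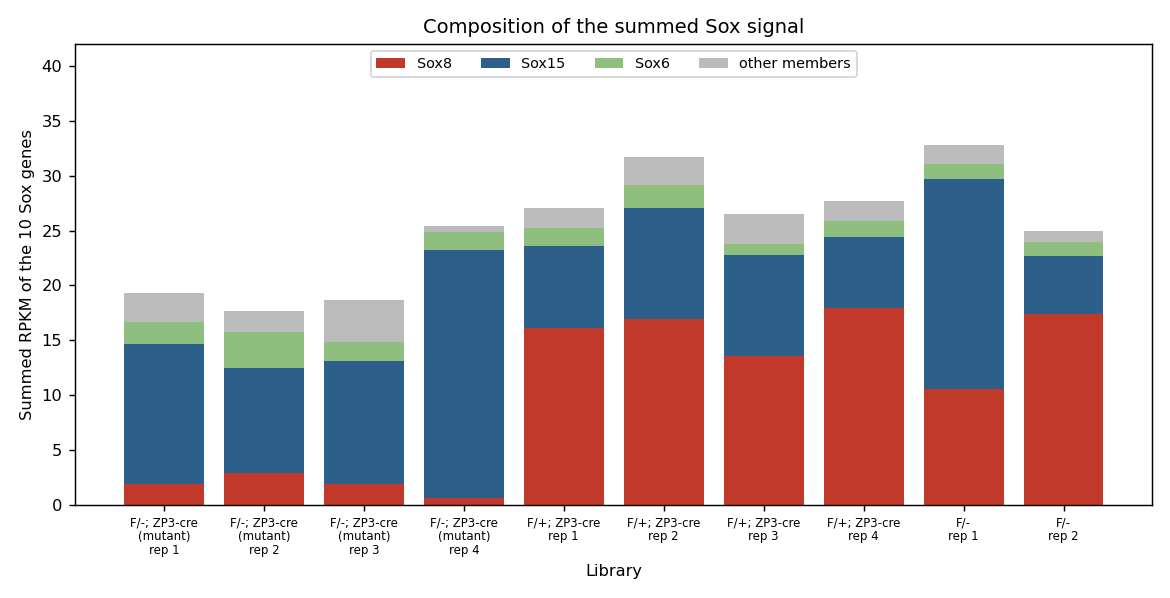
Summed RPKM of the 10 Sox genes in each library, stacked by gene on an axis that starts at 0. Sox8 fills 2.53% to 16.6% of the bar in mutants and 32.3% to 69.8% in controls, and Sox15 is the main part of every mutant bar.

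The remaining members of the family in the mouse, Sox1, Sox2, Sox3, Sox7, Sox11, Sox14, Sox17, Sox18, Sox21 and Sry, were all below the minimum level. Sox3, Sox14 and Sry were at 0 in all 10 libraries. Sox2, the pluripotency factor of the SoxB1 subgroup, had the highest level of these, at 0.251, 0.0144, 0.0446 and 0 RPKM in mutants, at 0.251, 0.256, 0.273 and 0.388 RPKM in F/+; ZP3-cre, and at 0.256 and 0.0279 RPKM in F/-. Mutant library 1 matched the controls, the other 3 mutant libraries were below F/+; ZP3-cre, and F/- library 2 was low as well. These values rest on at most 66 reads.

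Sox8 lies on chromosome 17 from 25565892 to 25570686 on the minus strand (GRCm38, GENCODE M21). Its first exon shares 329 bases with the antisense RNA 2810468N07Rik, which was at 0.131 ± 0.197 RPKM in mutants and 0.133 ± 0.135 RPKM in controls. Lmf1, which encodes a factor for lipase maturation, starts 8.4 kb upstream and was at 4.18 ± 1.38 RPKM in mutants and 2.37 ± 1.25 RPKM in controls. Its difference of 0.76 (SE 0.34) did not pass (limma adjusted p = 0.23). Cacna1h, a calcium channel gene on the other side, was at 8.0 ± 1.01 RPKM in mutants and 7.84 ± 0.346 RPKM in controls, a difference of 0.02 (SE 0.16, limma adjusted p = 0.96). Tekt4, Gng13 and Chtf18 had differences of -0.19, 0.32 and 0.36 with limma adjusted p-values of 0.88, 0.71 and 0.57. Sstr5 was listed above 0 in a single control library. None of the 5 tested neighbours passed, a count near the 5.33% of all tested genes.

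**Figure D5:**
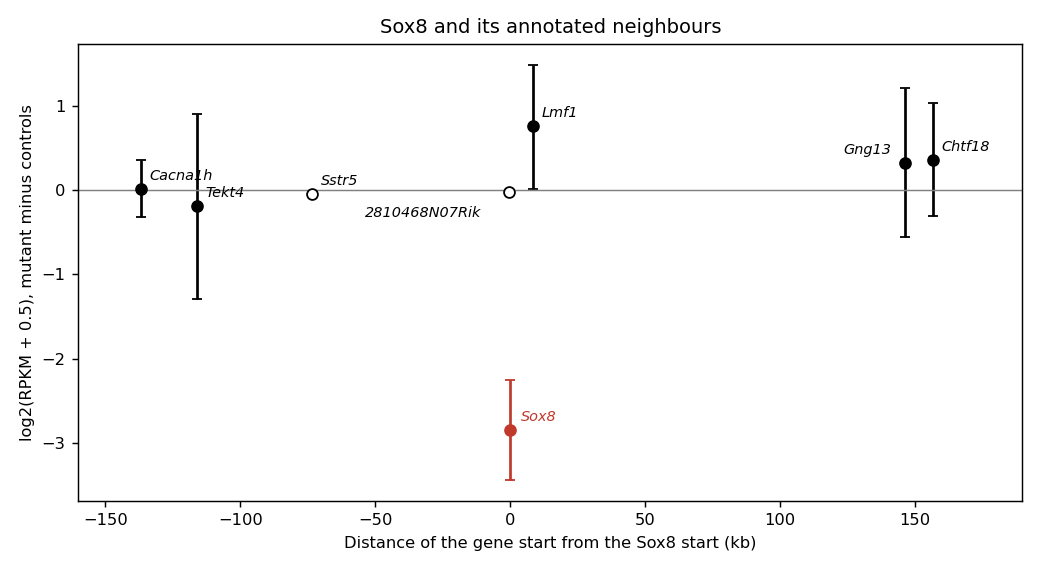
Difference in log2(RPKM + 0.5), mutants minus all controls, of Sox8 (red) and its neighbours, against the distance of their starts from the Sox8 start in kilobases. Bars are 95% intervals from limma, and open points mark genes below the minimum level, with no interval. Sox8 lies at -2.85, with an interval that does not allow for its choice on this contrast, and the neighbours lie between -0.19 and 0.76.

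The profiles most like that of Sox8 were ranked by the root mean square difference of log2(RPKM + 0.5), each centred on its own mean, over the 10 libraries. St3gal5, which encodes the GM3 ganglioside synthase, was closest at 0.28, followed by Setdb1 at 0.39, Gm10466 at 0.47, Cdc42ep3 at 0.48 and Parp8 at 0.51. The median over 11337 other tested genes was 1.52. St3gal5 was at 0.693 ± 0.319 RPKM in mutants and 7.47 ± 1.72 RPKM in controls, and Parp8 at 1.57 ± 0.858 RPKM in mutants and 7.52 ± 1.91 RPKM in controls. No other tested Sox gene was close to Sox8: Sox12 was at 1.55, Sox6 at 1.64, Sox13 at 1.71 and Sox15 at 1.89, all past the median. Mutant and control libraries both enter this distance, so it includes the contrast on which Sox8 was chosen. The ranking is a description and carries no test.

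Genes that work with or near SOX factors mostly did not pass. Of 22 tested genes with an HMG box outside the Sox family, 1 was higher in mutants than in all controls, 0 were lower and 21 did not pass, a share near the 5.33% of all tested genes. Their median difference was 0.22, and that of all genes was 0.03. The one was Ubtf, which encodes a factor of RNA polymerase I transcription, at 6.07 ± 2.73 RPKM in mutants and 1.43 ± 0.459 RPKM in controls (difference 1.69, SE 0.31, limma adjusted p = 0.0061). Hbp1, Tcf7 and Smarce1 followed with limma adjusted p-values of 0.074, 0.11 and 0.25. Against F/+; ZP3-cre alone, where 4.89% of all tested genes passed, 2 of the 22 were higher in mutants, Ubtf and Tcf7. Tcf7, a Wnt pathway factor, was at 44.3 ± 10.5 RPKM in mutants and 23.3 ± 3.15 RPKM in F/+; ZP3-cre (difference 0.89, SE 0.19, limma adjusted p = 0.02). Its call was lost in 5 of 21 alternatives, among them leaving out F/+; ZP3-cre library 1, 2 or 3 (adjusted p up to 0.065). That of Ubtf (limma adjusted p = 0.019) was also lost in 5 of 21, among them leaving out mutant library 4 or F/+; ZP3-cre library 1, 3 or 4 (adjusted p up to 0.081). Against F/- alone, where 4.84% of all tested genes passed, 2 of the 22 were higher in mutants, Ubtf and Tox3. Tox3 was at 12.5 ± 2.13 RPKM in mutants and 5.15 ± 3.18 RPKM in F/- (difference 1.31, SE 0.31, limma adjusted p = 0.032), a call lost in 10 of 21 alternatives, among them leaving out any of mutant libraries 2, 3 and 4, F/+; ZP3-cre libraries 1, 2 and 4 or F/- library 2 (adjusted p up to 0.28). That of Ubtf (limma adjusted p = 0.025) was lost in 6 of 21, among them leaving out either F/- library (adjusted p up to 0.42).

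Of 16 tested partner and cofactor genes of SOX proteins none passed between mutants and all controls (median 0.04), where 5.33% of all tested genes did. Against F/+; ZP3-cre alone, where 4.89% of all tested genes passed, 1 of the 16 was higher in mutants. This was Prkaca, a catalytic subunit of protein kinase A. It was at 16.5 ± 5.04 RPKM in mutants and 9.01 ± 1.19 RPKM in F/+; ZP3-cre (difference 0.8, SE 0.21, limma adjusted p = 0.047). The call was lost in 14 of 21 alternatives, among them leaving out mutant library 2, 3 or 4 or any F/+; ZP3-cre library (adjusted p up to 0.15). Against all controls the smallest p was that of Kpnb1, an importin that carries SOX proteins into the nucleus, at 35.9 ± 4.5 RPKM in mutants and 43.1 ± 3.88 RPKM in controls (limma adjusted p = 0.23).

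In the sex determination pathway in which Sox8 and Sox9 act, none of the 6 tested testis genes and none of the 4 tested ovary genes passed between mutants and all controls, counts near the background of 5.33%. Their medians were 0.05 and 0.14. Fgfr2, the receptor for Fgf9 in the testis pathway, was at 7.27 ± 1.13 RPKM in mutants and 13.5 ± 4.25 RPKM in controls (difference -0.79, SE 0.26, limma adjusted p = 0.11). Against F/+; ZP3-cre alone, at 15.8 ± 1.67 RPKM, the difference of -1.08 (SE 0.21) did pass (limma adjusted p = 0.012), as 1 of 6 tested testis genes, where 4.89% of all tested genes passed. This call was lost without F/+; ZP3-cre library 2 or 4 (largest adjusted p over all alternatives 0.059). Fgf9, which keeps Sox9 active in the testis, was at 4.12 ± 1.52 RPKM in mutants and 2.58 ± 0.826 RPKM in controls (limma adjusted p = 0.31). In the ovary list Znrf3 and Rnf43, which restrain Wnt signalling, had limma adjusted p-values of 0.32 and 0.46.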

How the data were processed

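Per the labels' protocols, 1.2 ng of RNA was amplified as cDNA (NuGen Ovation) and entered an unstranded TruSeq DNA preparation. Amplifying so little RNA can widen the spread of low genes. The authors deposited RPKM per RefSeq transcript (34768 rows, 24453 symbols, 10 libraries). STAR, bcl2fastq 1.8.3 and mm10 are named in the submitters' processing notes, and no source used here names the counting tool.

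Where a symbol had several rows, the one with the highest mean was used. Whole reads were recovered for 98.6% of rows above 0 (tolerance 0.001 of a read). The 11338 genes that averaged 0.5 RPKM or more were tested on log2(RPKM + 0.5), which understates changes of low genes, with limma 3.58.1 in R 4.3.3 (empirical Bayes with trend, Benjamini-Hochberg over all tested genes, threshold 0.05). The comparison with all controls used 2 levels; the others used 3 groups sharing 1 estimate of the spread. The fits were tested on simulated data. Limits for a count of 0 are 3 reads and cover counting error only, since amplified reads are not independent molecules.

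The members and gene lists were chosen with earlier results of these data known. Named genes are all Sox genes, Setdb1, list members past the threshold and otherwise up to 4 with the smallest p, the 5 profiles nearest to Sox8, and its neighbours (3 a side). The alternatives covered pseudocount, filter, scaling, library weights, trend, row choice, replicate block and leaving out each library. Limma-voom on recovered reads was added after seeing the data.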

Additional observations from a re-analysis of the deposited data

Results flagged for a closer look

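In 4 of 28 groups of Sox values, 1 library lay apart from the rest by Dixon's 95% criterion. Its rate of about 1 in 20 groups holds for separate groups of normally spread values. Here the groups share libraries and several hold many values of 0, so the count of 4 is not set against that rate. A group with 1 value above 0 and the rest at 0 always meets the criterion, as in the flagged groups of Sox9 and Sox10. Sox15 was at 19.1 RPKM in F/- library 1, with the next control at 10.2 RPKM. Sox5 was at 0.46 RPKM in F/+; ZP3-cre library 1, the lowest of its group, with the next at 0.693 RPKM. Sox9 was at 0.122 RPKM in mutant library 1 and at 0 in the other 3 mutants. Sox10 was at 0.00507 RPKM in F/- library 2, from 1 read, and at 0 in the other 5 controls.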

How the results depend on the processing

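Over 332 alternative values of the tested Sox genes other than Sox8, 312 kept their direction and stayed on their side of the threshold. Some could not turn direction. Leaving out a library of a group not compared, or changing only the trend, filter or threshold, leaves the difference itself as it was. None of these genes passed in any alternative. For Sox8, mutants minus all controls stayed between -3.06 and -2.53 when a library was left out and between -3.26 and -2.2 otherwise. The value of -3.26 came from limma-voom on the log2 CPM scale, and that of -2.2 from a pseudocount of 2 RPKM. The difference of Setdb1 stayed between -3.38 and -2.94 when a library was left out. Between the control groups, Sox8 ran from -0.11 to 0.57 with a library left out.

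Sox12 turned sign. Against all controls it was 0.03 with a pseudocount of 2, 0.13 with quantile normalization, 0.33 with library weights and -0.41 to 0.25 with a library left out. Against F/+; ZP3-cre it was 0.17 with quantile normalization, 0.32 with weights and -0.52 to 0.14 with a library left out. Against F/- it was -0.21 to 0.6 with a library left out. Between the control groups it was -0.14 with quantile normalization and -0.07 to 0.74 with a library left out. With a library left out, Sox13 against F/+; ZP3-cre was -0.07 to 0.55, Sox15 against F/- was -0.51 to 1.25, and Sox15 between the control groups was -1.17 to 0.59. The cause was not tested.

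The count of genes past the threshold moved more. Against all controls it was 604, and 399 without the filter, 1388 with weights, 909 when F/+; ZP3-cre alone served as control, 979 at an adjusted p of 0.1 and 360 to 794 with a library left out. Against F/+; ZP3-cre it was 554, and 1396 with weights and 226 to 905 with a library left out. Against F/- it was 549, and 345 without the filter, 52 with weights and 277 to 1467 with a library left out. Between the control groups it was 8, and 25 with a pseudocount of 0.1, 21 without the filter, 25 with a filter of 2 RPKM, 17 with quantile normalization, 0 with weights and 0 to 840 with a library left out (840 without F/- library 1). As reported, this contrast had 1584 genes at an unadjusted p under 0.05.

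Deviations from the group means of libraries with the same replicate number correlated at -0.05 to 0.03, and with different numbers at -0.08 to 0.08. Deviations within a small group are tied to each other, so this check cannot settle whether samples were paired. With the replicate block the counts were 376 against all controls, 383 against F/+; ZP3-cre, 223 against F/- and 1 between the control groups, and no Sox gene gained a call. Depth limits Sox4, Sox9, Sox10 and Sox30, which rest on at most 76 reads a library.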
